A study of Mus musculus with 18 samples.

Results

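The effect of interleukin 10 (IL-10) given alone to resting macrophages was measured by RNA-seq in 6 of the 18 libraries of the series, 3 from cultures given IL-10 and 3 from untreated cultures. The libraries were chosen by their labels and not by any measured value, and all genes were compared. The cells were bone marrow-derived macrophages (BMDMs), macrophages grown from bone marrow in medium conditioned by L929 cells, a source of the growth factor M-CSF. All 6 cultures came from 3 male Il10-/- mice of the C57BL/6J background, aged 12 weeks. Both groups thus shared the Il10-/- genotype, and no wild-type cells are compared here. The treated group received recombinant IL-10 at 10 ng/mL for 12 hours and then saline buffer for 4 hours, whereas the untreated group was given no IL-10 and was collected at the same 16 hours. For the pretreatment before lipopolysaccharide (LPS, the endotoxin of Gram-negative bacteria) the study names a vehicle control, and for resting cells it names untreated cells. Because the labels call the cultures matched, same-numbered cultures of both groups were taken as pairs. The main fit did not use the pairing. It entered only in choosing the genes named and in alternative fits with the replicate number as a block, called the replicate block below. In both groups replicates 1 and 2 were sequenced on lane 7 and replicate 3 on lane 8.

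IL-10 is a cytokine that restrains inflammatory gene expression in macrophages. It binds a receptor made of the chains IL-10RA and IL-10RB, the kinases JAK1 and TYK2 on that receptor phosphorylate the transcription factor STAT3, and STAT3 then enters the nucleus and activates its target genes. SOCS3, the product of one of these targets, is a feedback inhibitor of cytokine receptors. Most of what is known of the response was learned in macrophages that were activated at the same time, and the comparison of resting cells asks what IL-10 does to cells that received no bacterial product.

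The total of expected counts, the reads that the quantification assigned to genes, ran from 6781952 in untreated replicate 2 to 28289498 in IL-10 replicate 1. All 8 macrophage markers were tested, and their summed normalised counts per library ran from 212288 to 227290.0 in untreated cells and from 215294 to 223906 with IL-10. Markers of 8 other cell types were often too low to test, with 6 of 9 neutrophil, 5 of 7 dendritic cell, 3 of 7 T cell, 7 of 8 fibroblast, 2 of 5 B cell, 1 of 6 mast cell and 0 NK cell and erythroid markers tested. Of those tested DESeq2, edgeR and limma called 0, while at an unadjusted p under 0.05 a neutrophil marker was higher, another was lower and a mast cell marker was lower. The T cell markers summed to 415 to 589.9 normalised counts per library, nearly all from Cd4 and Cd28, while Cd3e was at or near 0, and the neutrophil markers summed to 1234 to 1595, mostly from Csf3r, while Ly6g was at 0. Untreated replicate 1 stood apart from the other untreated libraries. It held the highest of the 3 untreated values for 146 of the 229 genes called higher with IL-10 and for 61 of the 129 called lower, against 34.4% of all genes tested. The gene targeted in these mice, Il10 (chr1:132916422-132921551, plus strand, mm9), still had reads in every library, with normalised counts of 37.0, 27.1 and 33.5 in untreated replicates 1, 2 and 3 and 48.3, 43.0 and 49.0 with IL-10 (log2 fold change 0.49, SE 0.234, adjusted p 0.447). All libraries came from Il10-/- cells, and no wild-type level was measured for comparison.

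IL-10 alone changed 358 of 12727 tested genes (2.81%; DESeq2 Wald test, Benjamini-Hochberg adjusted p under 0.05), and more genes rose than fell. 229 genes were higher with IL-10 (1.8% of those tested) and 129 were lower (1.01%). These 2 shares are the background for all counts of list and family members given below. Most changes were small, with a median size of 0.46 on the log2 scale among the genes that rose and 0.45 among those that fell, and the rise was above 1 on that scale for 36 genes. Over all genes tested the median difference was -0.01. The 3 IL-10 libraries did not overlap the 3 untreated libraries in 226 of the 229 higher genes and 122 of the 129 lower genes, and the same held for 17.1% of all genes tested. In bulk RNA, fewer cells of a type and less RNA per cell cannot be told apart. Leaving out 1 library at a time, 107 of the 229 rises (46.7%) and 32 of the 129 falls (24.8%) kept their calls in all 6 fits. Without untreated replicate 1 the total was 374, and 191 of the rises (83.4%) but only 67 of the falls (51.9%) were still called.

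Transcripts of the receptor and of its signalling proteins differed little, with the exception of Stat3. Protein levels and STAT3 phosphorylation were not measured in these libraries. Il10ra, the ligand-binding chain, had normalised counts of 2451, 2506 and 2367 in untreated cells and 2531, 2489.6 and 2529.7 with IL-10, and Il10rb, the shared chain, had 2533, 2757 and 2791 and 2787, 2709 and 2747. On the TPM scale, which adjusts for gene length, the mean level of untreated cells was 101 for Il10ra and 223 for Il10rb. The IL-10 libraries lay within or next to the untreated range for both chains, and the fitted differences were 0.05 ± 0.0703 and 0.03 ± 0.0506 (log2 fold change ± SE, adjusted p 1 for both). Of 14 genes of IL-10 receptor and JAK-STAT signalling, all tested, 1 rose and 0 fell with DESeq2, edgeR and limma alike (median log2 fold change 0.04, 2 higher and 2 lower at an unadjusted p under 0.05), and with the replicate block Jak1 (adjusted p 0.0425) rose as well. Stat3 (chr11:100746412-100800854, minus strand) was the gene that rose. Its counts were 2102, 1647 and 1494 in untreated cells and 2972, 2994 and 2839.6 with IL-10, and every IL-10 library exceeded every untreated library (log2 fold change 0.75, SE 0.0944, adjusted p 1.78e-12). Jak1, a receptor kinase, gave 0.15 ± 0.0498 (adjusted p 0.0684, or 0.0425 with the replicate block).

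Effector and feedback genes of the IL-10 and STAT3 response were among the genes that rose, and Socs3 had the largest rise among calls that averaged at least 50 counts. Of 25 listed genes 24 were tested, 8 rose and 0 fell, beside 1.8% and 1.01% of all tested genes. The median log2 fold change was 0.18, or 0.37 without untreated replicate 1. edgeR called 7 higher and limma 9, and neither called one lower. The fit of the 6 libraries alone called 9 higher and 1 lower, and 2 were lower at an unadjusted p under 0.05. Socs3 (chr11:117827393-117831361, minus strand) had normalised counts of 174, 23.7 and 36.2 in untreated replicates 1, 2 and 3 and 931, 703 and 691 with IL-10. Untreated replicate 1 was the highest untreated library but still lay well below every IL-10 library, and the fitted rise was 9.85-fold (log2 fold change 3.30, SE 0.527, adjusted p 1.23e-07). Without untreated replicate 1 the log2 fold change was 4.60. Il4ra, the alpha chain of the interleukin 4 receptor, went from 1679, 1377 and 1247 to 3177, 3127 and 2904 (1.10 ± 0.119, adjusted p 4.29e-17). Nfil3, a leucine zipper transcription factor, went from 209, 169 and 123 to 353, 383 and 327 (1.09 ± 0.150, adjusted p 1.90e-10). In both genes the lowest IL-10 library exceeded the highest untreated library.

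Nuclear regulators of the same list rose by less than Socs3. Bcl3, a nuclear IκB protein, had counts of 579, 391 and 312 in untreated cells and 928, 838 and 823 with IL-10 (log2 fold change 1.01, SE 0.181, adjusted p 5.70e-06). Sbno2, a co-repressor of inflammatory genes, had 2610.5, 2190.2 and 1909 and 3935, 3903 and 3598 (0.77 ± 0.115, adjusted p 1.17e-08). The groups did not overlap in either gene. Etv3, an ETS-family repressor, rose by 0.48 on the log2 scale, Cebpd by 0.66 and the kinase gene Pim1 by 0.46 (adjusted p 2.41e-07, 9.71e-04 and 0.00754). Other known members did not pass: Hmox1, heme oxygenase 1, gave 0.12 ± 0.160, Il1rn, the interleukin 1 receptor antagonist, gave -0.03 ± 0.163, and Cd163, a hemoglobin scavenger receptor, gave 0.09 ± 0.472 at under 40 counts in each library. Zfp36, which speeds the decay of inflammatory mRNAs, gave 0.28 ± 0.0870 with an adjusted p of 0.0525, or 0.0268 with the replicate block. Socs3, Il4ra, Nfil3, Bcl3, Sbno2, Etv3 and Cebpd kept their calls when any 1 of the 6 libraries was left out. The call of Pim1 was lost without untreated replicate 2 (adjusted p 0.0997), untreated replicate 3 (adjusted p 0.118) or IL-10 replicate 1 (adjusted p 0.0532).

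Promoter sequence is shown for 4 of the raised genes because STAT proteins bind palindromes of the form TTCNNNGAA. The RefSeq table of promoters (250 bases before to 50 after each start site, GRCm38.p6) held a window for 10149 of the 12727 tested genes. The whole window of every sequence printed was found once, base for base, in the mm9 genome, from which its coordinates were taken. The motif, which reads alike on both strands, was present in 17 of 185 raised genes with a window (9.19%) and in 6 of 103 lowered genes (5.83%), beside 8.18% of all tested genes and 8.30% of all windows. The match is in capitals in each line, lies upstream of the RefSeq start site and outside annotated exons, and in Socs3 and Fcgr1 it falls inside the gene as GENCODE draws it, whose start is farther upstream. It was not tested for binding.
Socs3, chr11:117830796-117830864, minus strand: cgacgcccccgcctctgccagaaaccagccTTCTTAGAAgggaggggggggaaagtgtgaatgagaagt
Fcgr1, chr3:96097963-96098031, minus strand: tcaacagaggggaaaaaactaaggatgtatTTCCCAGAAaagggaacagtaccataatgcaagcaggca
Pros1, chr16:62854011-62854079, plus strand: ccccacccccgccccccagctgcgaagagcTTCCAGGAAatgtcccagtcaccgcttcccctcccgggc
Sbno2, chr10:79565448-79565503, minus strand: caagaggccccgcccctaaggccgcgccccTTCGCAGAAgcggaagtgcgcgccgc
The match ended 146 bases before the RefSeq start site in Socs3, 101 in Fcgr1, 84 in Pros1 and 18 in Sbno2. A start site may lie elsewhere in macrophages, and so short a match is common, as its share of all promoters shows.

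After Socs3 the largest rises among calls of at least 50 counts on average were in Ednrb and Nxpe5, and Tgfbi and Fn1, which encode matrix proteins, rose too. Ednrb, the endothelin receptor type B (chr14:104213842-104243390, minus strand), had counts of 78.7, 18.6 and 28.8 in untreated cells and 456, 273 and 339 with IL-10, an 8.16-fold rise (log2 fold change 3.03, SE 0.310, adjusted p 3.48e-19). Nxpe5 had 239, 96.4 and 96.5 and 1114, 922 and 1043 (7.06-fold, log2 fold change 2.82, SE 0.268, adjusted p 2.28e-22). In both genes untreated replicate 1 was the highest untreated library, and no untreated library reached an IL-10 library. Without that library the log2 fold change was 3.83 for Ednrb and 3.41 for Nxpe5. Tgfbi, a matrix protein induced by TGF-β (chr13:56710920-56740923, plus strand), had 7944, 4451 and 3791 in untreated cells and 14044, 13236 and 11735 with IL-10 (1.27 ± 0.253, adjusted p 1.00e-04). Fn1, which encodes fibronectin, had 2516, 1605 and 1865 and 4880.3, 3615 and 4291 (1.09 ± 0.165, adjusted p 1.49e-08). On the TPM scale the mean of Tgfbi was 298 in untreated cells and 744 with IL-10, and that of Fn1 was 36.0 and 80.1.

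**Figure D1:**
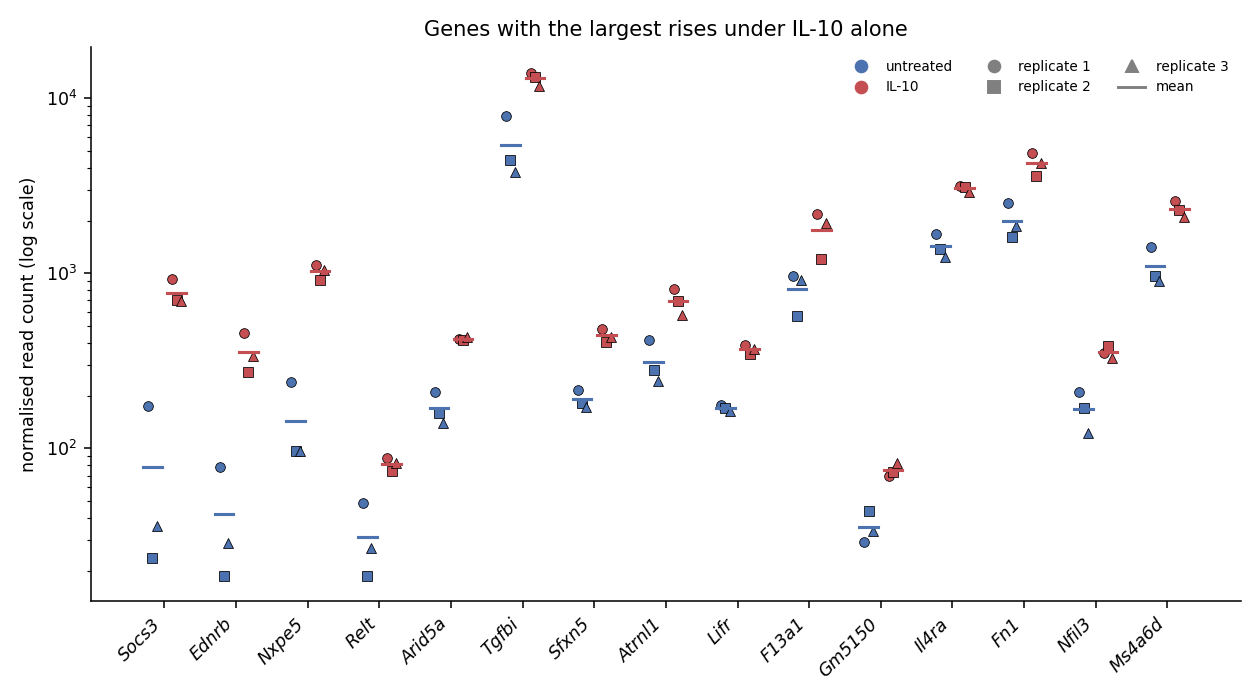
Normalised read counts (log scale) of the 15 genes with the largest rises under IL-10 alone among calls averaging at least 50 counts, with 1 point per library, a shape per replicate number and a bar at each group mean of 3 libraries. The IL-10 points lie above the untreated points in every gene, and untreated replicate 1 is the highest untreated point in most of them, including Socs3, Ednrb and Nxpe5.

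Lifr, Arid5a and Sfxn5 were among the other large rises. Lifr, the receptor of leukemia inhibitory factor, which also signals through STAT3, had 177, 169 and 163 in untreated cells and 391, 348 and 368 with IL-10 (2.18-fold, adjusted p 5.89e-17), and the libraries of each group lay close together. Arid5a, an RNA-binding protein that stabilizes inflammatory mRNAs, had 209.8, 159 and 140.1 and 422, 417 and 432 (1.32 ± 0.153, adjusted p 7.36e-15). The mitochondrial carrier gene Sfxn5 had 216, 183 and 172 and 484, 408 and 434 (1.22 ± 0.139, adjusted p 2.75e-15). The groups did not overlap in these 3 genes. Atrnl1, Ms4a6d, Relt, a TNF receptor family gene, and Gm5150 rose by 1.15, 1.09, 1.32 and 1.11 on the log2 scale (adjusted p 2.69e-08, 5.17e-09, 1.90e-04 and 0.00220). Lifr, Arid5a, Sfxn5, Ednrb, Nxpe5, Tgfbi, Fn1, Atrnl1 and Ms4a6d kept their calls when any 1 of the 6 libraries was left out. The call of Relt was lost without untreated replicate 3 (no adjusted p) or IL-10 replicate 2 (no adjusted p). The call of Gm5150 was lost without untreated replicate 3 (no adjusted p) or IL-10 replicate 2 (no adjusted p).

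Fc receptors, which bind the constant part of antibodies, rose in 5 of the 8 members tested (of 10 listed), with 0 falling and a median log2 fold change of 0.40. Of all tested genes 1.8% rose. The inhibitory receptor Fcgr2b (chr1:172890689-172906678, minus strand) had the smallest p-value of all named genes. Its counts were 1314, 1285 and 1173 in untreated cells and 2808, 2572 and 2521 with IL-10, a 2.10-fold rise (log2 fold change 1.07, SE 0.0730, adjusted p 1.37e-44), and the spread within each group was small beside the difference. Fcrls, an Fc receptor-like scavenger gene, had 4851, 4061 and 4267 and 9239, 7597 and 8305 (0.93 ± 0.117, adjusted p 1.26e-12). Fcgr1, the high-affinity IgG receptor, had 2473, 1921 and 1789.8 and 2629, 2764 and 2849.5 (0.41 ± 0.104, adjusted p 0.00505), and its untreated replicate 1 lay just under the lowest IL-10 library. Fcgr3 gave 0.38 ± 0.104 (adjusted p 0.0129), Fcgrt, the neonatal Fc receptor, 0.40 ± 0.0966 (adjusted p 0.00331) and Fcgr4 0.43 ± 0.147 (adjusted p 0.0900, or 0.0137 with the replicate block). Fcer1g, a signalling chain shared by several but not all of these receptors, gave 0.12 ± 0.0708 (adjusted p 0.693). The Fc receptor genes share sequence, and the counting divided reads that match several of them. Fcgr2b, Fcrls and Fcgrt kept their calls when any 1 of the 6 libraries was left out. The call of Fcgr1 was lost without untreated replicate 2 (adjusted p 0.0616) or untreated replicate 3 (adjusted p 0.0735). The call of Fcgr3 was lost without untreated replicate 1 (adjusted p 0.0925), IL-10 replicate 1 (adjusted p 0.0506), IL-10 replicate 2 (adjusted p 0.0851) or IL-10 replicate 3 (adjusted p 0.0522). The list had 3 higher and 0 lower with limma.

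Of 28 tested genes of scavenging and of the uptake of dying cells (30 listed), 4 rose and 2 fell (median 0.05, or 0.00 without untreated replicate 1). Members of the TAM pathway moved in both directions. In that pathway GAS6 and protein S bridge dying cells to receptors that include AXL and MERTK, and not every ligand binds every receptor. The ligand gene Gas6 had 2899.8, 3690.4 and 3462 in untreated cells and 4195, 4358 and 4518 with IL-10 (0.38 ± 0.0896, adjusted p 0.00195). Pros1, which encodes protein S, had 485, 429.6 and 419.6 and 715, 715 and 730.2 (0.69 ± 0.153, adjusted p 6.92e-04). In contrast, Axl had 2506, 2155 and 2059 and 1514, 1594 and 1612 (-0.51 ± 0.115, adjusted p 9.28e-04). Each of these 3 genes had non-overlapping groups, while Mertk gave 0.16 ± 0.0912 (adjusted p 0.663). Cd5l, a secreted macrophage protein that regulates lipid metabolism and survival, had 626, 616 and 730.0 and 1282, 1313 and 1590.1, a 2.12-fold rise (1.08 ± 0.164, adjusted p 1.49e-08). Mrc1, the mannose receptor, had 2737, 2175 and 2582 and 4759, 3456 and 4362 (0.75 ± 0.177, adjusted p 0.00220). Anxa1, annexin A1, fell by 0.35 on the log2 scale (adjusted p 0.00903), and Cd36, Msr1 and Stab1 gave -0.41 ± 0.281, 0.12 ± 0.135 and 0.06 ± 0.0978 without passing. Gas6, Pros1, Axl and Cd5l kept their calls when any 1 of the 6 libraries was left out. The call of Mrc1 was lost without IL-10 replicate 1 (adjusted p 0.0622). The call of Anxa1 was lost without untreated replicate 3 (adjusted p 0.131) or IL-10 replicate 1 (adjusted p 0.110). The list had 4 higher and 1 lower with edgeR and 2 higher and 1 lower with limma.

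Complement genes rose in 4 of 17 tested members (19 listed) and fell in 0, with a median of 0.31, beside rises in 1.8% of all tested genes. Itgam, the alpha chain of complement receptor 3 and also a macrophage marker, had 10985, 10061 and 9365 in untreated cells and 14512, 13552 and 13596 with IL-10 (log2 fold change 0.45, SE 0.0629, adjusted p 2.72e-10). All IL-10 libraries exceeded all untreated libraries. The 3 chains of C1q gave similar values: C1qb rose by 0.37 on the log2 scale (adjusted p 0.00346), and C1qa and C1qc gave 0.33 ± 0.153 and 0.34 ± 0.115 (adjusted p 0.409 and 0.0905, the latter 0.0244 with the replicate block). The mean level of C1qb was 3144 TPM in untreated cells and 4236 TPM with IL-10. C4b passed at very low levels, with raw counts of 16, 1 and 5 in untreated cells and 56, 25 and 23 with IL-10 (adjusted p 0.0249), and no adjusted p was given to it with the replicate block. Itgam and C1qb kept their calls when any 1 of the 6 libraries was left out. The call of C4b was lost without any 1 of the 6 libraries, and 3 of these fits gave it no adjusted p.

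Genes known from alternative activation, the macrophage state driven by interleukin 4, did not move together. Of 18 tested members (20 listed) 3 rose and 1 fell, with a median of -0.16, or 0.22 without untreated replicate 1. The risers were Il4ra and Mrc1, described above, and F13a1, the A subunit of coagulation factor XIII, with 960.4, 573 and 914 in untreated cells and 2175, 1209 and 1929.9 with IL-10 (log2 fold change 1.12, SE 0.339, adjusted p 0.0392). Replicate 2 was the lowest of both groups in F13a1, and the adjusted p was 1.93e-17 with the replicate block. Egr2, a zinc finger transcription factor, fell from 333, 316 and 306 to 178, 201 and 213 (-0.70 ± 0.140, adjusted p 1.00e-04). Arg1, arginase 1, was near 0 in every library, with raw counts of 5, 3 and 6 and 20, 1 and 1, and Retnla was at 0 in all 6 libraries. The call of F13a1 was lost without untreated replicate 2 (adjusted p 0.249), untreated replicate 3 (adjusted p 0.0735), IL-10 replicate 1 (adjusted p 0.355) or IL-10 replicate 3 (adjusted p 0.168). Egr2 kept its call when any 1 of the 6 libraries was left out. The list had 1 higher and 1 lower with limma and 4 higher and 2 lower without untreated replicate 1.

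Among 14 tested receptors for chemokines and other attractants (17 listed), 2 rose and 0 fell (median -0.02, or 0.09 without untreated replicate 1), with Cx3cr1 (adjusted p 0.0294) and Ptafr (adjusted p 0.00144) lower in the fit with the replicate block and 3 members lower at an unadjusted p under 0.05. Ccr1, a receptor of CCL3 and CCL5, had 284, 145 and 183 in untreated cells and 388, 360.4 and 394 with IL-10 (log2 fold change 0.89, SE 0.228, adjusted p 0.00673), and the groups did not overlap. Ccr2, the CCL2 receptor of monocytes, gave 0.63 ± 0.208 (adjusted p 0.0747) and Cx3cr1, the fractalkine receptor, -0.46 ± 0.196 (adjusted p 0.294). The call of Ccr1 was lost without untreated replicate 2 (adjusted p 0.0771), untreated replicate 3 (adjusted p 0.0709) or IL-10 replicate 1 (adjusted p 0.0627).

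Toll-like receptors and their partners were mostly not called, with 3 of 21 tested members higher and 1 lower (23 listed, median 0.19). The shares of all tested genes were 1.8% higher and 1.01% lower. Ly86, the secreted partner of the receptor-like protein CD180, had 1713, 1517 and 1554 in untreated cells and 2314, 1998 and 2225 with IL-10 (0.45 ± 0.0987, adjusted p 6.60e-04). Tlr1 and the kinase gene Irak4 rose by 0.57 and 0.29 on the log2 scale (adjusted p 0.0116 and 0.00573), and the kinase gene Irak2 fell by 0.32 (adjusted p 0.00624). Tlr4, the LPS receptor, gave 0.30 ± 0.198 (adjusted p 0.790), and its co-receptor Cd14 gave -0.23 ± 0.0818 (adjusted p 0.125). Ly86 kept its call when any 1 of the 6 libraries was left out. The call of Tlr1 was lost without untreated replicate 2 (adjusted p 0.0906), untreated replicate 3 (adjusted p 0.0614), IL-10 replicate 1 (adjusted p 0.161) or IL-10 replicate 3 (adjusted p 0.0544). The call of Irak4 was lost without untreated replicate 3 (adjusted p 0.0978) or IL-10 replicate 1 (adjusted p 0.111). The call of Irak2 was lost without untreated replicate 1 (adjusted p 0.0542), untreated replicate 2 (adjusted p 0.0528) or IL-10 replicate 2 (adjusted p 0.0549). The list had 1 higher and 1 lower with edgeR, 0 higher and 1 lower with limma and 4 higher and 0 lower without untreated replicate 1.

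Genes of antigen presentation showed little. Of 13 tested genes of MHC class II presentation 1 rose and 0 fell (14 listed, median 0.12, or 0.24 without untreated replicate 1; edgeR and limma called 0, and no member was lower at an unadjusted p under 0.05). That gene was Ctss, the protease cathepsin S, which rose by 0.21 on the log2 scale (adjusted p 0.00178), while H2-Ab1 and Cd74, which encode a class II chain and the invariant chain, gave 0.14 ± 0.216 and 0.12 ± 0.135. Of 14 ligands of T cell costimulation and checkpoints, all tested, DESeq2 called 0 (median -0.09, or 0.14 without untreated replicate 1), as did edgeR and limma, although 1 was higher and 2 were lower at an unadjusted p under 0.05 and 1 was called lower without untreated replicate 1. Cd274, which encodes PD-L1, gave -0.33 ± 0.198, and Cd40 gave 0.12 ± 0.292.

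Cathepsins (4 genes) were the risers among 20 tested lysosomal genes, of which 0 fell (median 0.01, or -0.01 without untreated replicate 1, 1 lower at an unadjusted p under 0.05). Ctsh had 2558, 2571 and 2612 in untreated cells and 3288, 3179.6 and 3152 with IL-10 (0.31 ± 0.0564, adjusted p 6.24e-06), a small difference beside which the libraries of each group lay close together. Ctsl, Ctsb and Ctss rose by 0.35, 0.21 and 0.21 on the log2 scale (adjusted p 0.0371, 0.00830 and 0.00178). Ctsd, Lamp1 and Hexa gave 0.08 ± 0.0940, 0.00 ± 0.0383 and 0.01 ± 0.0580. Ctsh kept its call when any 1 of the 6 libraries was left out. The call of Ctsl was lost without untreated replicate 1 (adjusted p 0.173), untreated replicate 2 (adjusted p 0.0526), untreated replicate 3 (adjusted p 0.0891), IL-10 replicate 2 (adjusted p 0.225) or IL-10 replicate 3 (adjusted p 0.161). The call of Ctsb was lost without untreated replicate 1 (adjusted p 0.0708), IL-10 replicate 2 (adjusted p 0.0750) or IL-10 replicate 3 (adjusted p 0.0724). The call of Ctss was lost without IL-10 replicate 1 (adjusted p 0.0561). The list had 1 higher and 0 lower with edgeR, 1 higher and 0 lower with limma and 2 higher and 0 lower without untreated replicate 1.

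Metabolic and cell cycle lists yielded few calls. DESeq2 called 0 of 21 genes of cholesterol and lipid handling (median 0.03, or 0.10 without untreated replicate 1), and edgeR and limma also called 0, while 3 were higher and 2 lower at an unadjusted p under 0.05 and Lpl (adjusted p 0.00140) was lower with the replicate block. The list had 0 higher and 1 lower without untreated replicate 1. DESeq2 called 0 of 20 glycolysis genes (median 0.01, or -0.02 without untreated replicate 1; edgeR and limma 0, 3 higher and 1 lower at an unadjusted p under 0.05, and Hk2 (adjusted p 0.0247) higher with the replicate block). Abca1, the cholesterol exporter, gave 0.22 ± 0.103, and Ldha, lactate dehydrogenase A, gave 0.15 ± 0.0745. Of 29 genes of the cell cycle and DNA replication DESeq2, edgeR and limma called 0 and 2 were lower at an unadjusted p under 0.05. Of the 29 fitted differences 28 were negative (median -0.19), as for Ccnb1 with -0.42 ± 0.286 and Mcm6 with -0.30 ± 0.145. The libraries overlapped, however. The median level of the list, as a log2 difference from the untreated mean, was -0.05, -0.12 and 0.16 in untreated replicates 1, 2 and 3. With IL-10 it was -0.31, -0.19 and -0.02. Only 2 of the 29 genes had non-overlapping groups. Of 14 D-type cyclins, their kinases and inhibitors 1 fell and 0 rose (median -0.14), and Ccnd1 (adjusted p 0.0128) also fell with the replicate block. The gene that fell was Cdk6, a partner kinase of the D-type cyclins, with 1794, 1402 and 1778 in untreated cells and 1149, 1063 and 1352 with IL-10 (-0.48 ± 0.136, adjusted p 0.0192), in which no library overlapped. Ccnd1 gave -0.38 ± 0.130 (adjusted p 0.0944). The call of Cdk6 was lost without untreated replicate 1 (adjusted p 0.111), untreated replicate 3 (adjusted p 0.132), IL-10 replicate 1 (adjusted p 0.152) or IL-10 replicate 2 (adjusted p 0.162). The list of cyclins, kinases and inhibitors had 0 higher and 0 lower with edgeR, 0 higher and 0 lower with limma and 0 higher and 0 lower without untreated replicate 1.

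Falls that were still called without untreated replicate 1 included genes of the plasminogen activation pathway, through which cells start the breakdown of fibrin and matrix. Plau, which encodes the urokinase plasminogen activator (chr14:21655884-21662610, plus strand), had 4744, 3966 and 4739.9 in untreated cells and 2329.6, 2646 and 3069.7 with IL-10 (log2 fold change -0.74, SE 0.139, adjusted p 1.80e-05). Its receptor gene Plaur (chr7:25247519-25260892, plus strand) had 482, 479 and 434 and 256, 294 and 271 (-0.77 ± 0.152, adjusted p 9.32e-05). Untreated replicate 1 was not set apart in these genes, and the lowest untreated library exceeded the highest IL-10 library. Procr, the endothelial protein C receptor, had 119.6, 108 and 86.5 and 58.9, 56.9 and 58.2 (-0.84 ± 0.201, adjusted p 0.00224). With F13a1 the only riser, these 3 were the fallers of the 22 tested genes of matrix and coagulation (median 0.03, or -0.11 without untreated replicate 1), and Mmp14 (adjusted p 0.00454) also rose with the replicate block. Mmp12, macrophage elastase, gave -0.58 ± 0.194 (adjusted p 0.0828, or 0.00358 with the replicate block) and Mmp14, a membrane-bound matrix protease, 0.59 ± 0.344 (adjusted p 0.676). Plau, Plaur and Procr kept their calls when any 1 of the 6 libraries was left out. The list had 0 higher and 2 lower with limma and 2 higher and 3 lower without untreated replicate 1. Limma on log2(TPM + 1) did not call Plau (adjusted p 0.0587).

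**Figure D2:**
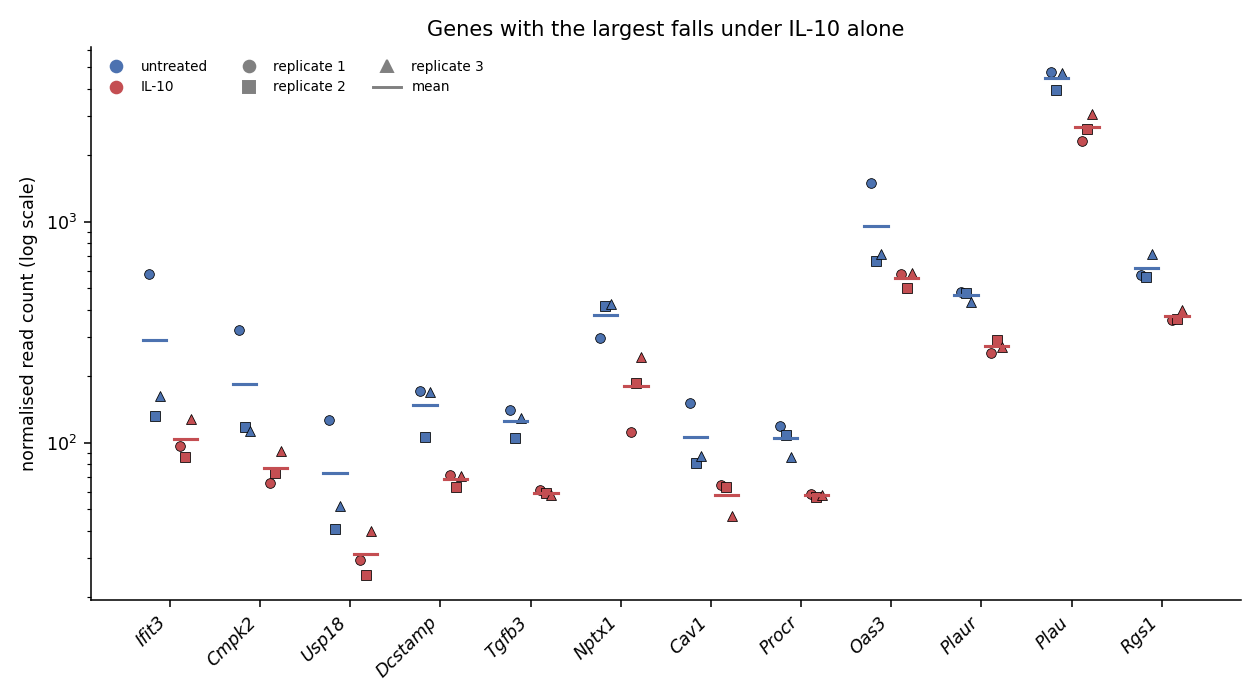
Normalised read counts (log scale) of the 12 genes with the largest falls under IL-10 alone among calls averaging at least 50 counts, with 1 point per library, a shape per replicate number and a bar at each group mean of 3 libraries. In Ifit3, Cmpk2, Usp18 and Oas3 the untreated mean is raised by replicate 1, whereas in Plau and Plaur the 3 untreated points lie close together.

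Other falls were in genes of cell fusion, growth factors and signalling. Dcstamp, which is needed for the fusion of osteoclasts and of macrophages into giant cells, had 171, 107 and 169.6 in untreated cells and 71.5, 63.0 and 70.6 with IL-10 (log2 fold change -1.14, SE 0.281, adjusted p 0.00392). Tgfb3, a TGF-β ligand, had 141, 105 and 130.0 and 61.3, 59.2 and 58.2 (-1.09 ± 0.243, adjusted p 9.20e-04). The 3 IL-10 libraries of each gene lay within a narrow range below all untreated libraries. Nptx1, neuronal pentraxin 1, fell by 1.08, Cav1, caveolin 1, by 0.89 and Rgs1, a regulator of G-protein signalling, by 0.73 on the log2 scale (adjusted p 9.22e-04, 1.43e-04 and 0.0168). Among 20 immediate early genes 1 rose and 2 fell (median -0.07). Ier3, a stress-response gene, had 177, 113 and 133 and 257, 246 and 261 (0.82 ± 0.134, adjusted p 2.61e-07), Atf3, a repressor of inflammatory genes, fell by 0.33 (adjusted p 0.0174), and Egr2 was the other that fell. Nptx1, Cav1 and Ier3 kept their calls when any 1 of the 6 libraries was left out. The call of Dcstamp was lost without untreated replicate 3 (adjusted p 0.0646). The call of Tgfb3 was lost without untreated replicate 1 (adjusted p 0.0652), untreated replicate 3 (no adjusted p) or IL-10 replicate 2 (no adjusted p). The call of Rgs1 was lost without untreated replicate 3 (adjusted p 0.165), IL-10 replicate 1 (adjusted p 0.135) or IL-10 replicate 2 (adjusted p 0.0766). The call of Atf3 was lost without untreated replicate 2 (adjusted p 0.179), untreated replicate 3 (adjusted p 0.138), IL-10 replicate 1 (adjusted p 0.251) or IL-10 replicate 3 (adjusted p 0.0568). The immediate early list had 1 higher and 1 lower with edgeR and 2 higher and 1 lower with limma.

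Few inflammatory cytokine, chemokine and enzyme genes passed in resting cells, and those that did were not called without untreated replicate 1. Of 34 tested members (36 listed) 0 rose and 3 fell, with a median fitted log2 fold change of -0.51. edgeR and limma called 0, and 1 was higher and 10 were lower at an unadjusted p under 0.05. The genes called were Il12b, the p40 subunit of IL-12 and IL-23, with raw counts of 24, 1 and 0 in untreated cells and 0, 0 and 0 with IL-10, Nos2, inducible nitric oxide synthase, with 9, 0 and 0 and 0, 0 and 0, and the chemokine gene Cxcl9 with 68, 4 and 2 and 9, 1 and 1. Nearly all of these counts came from 1 library, so no fold is given. The adjusted p was 0.0106 for Il12b, 0.0196 for Nos2 and 0.0307 for Cxcl9, and with the replicate block it was 0.0523, 0.0662 and 0.0403. Without untreated replicate 1 none of the 3 was called, the list had 2 higher and 0 lower members, and its median was 0. Il6 had raw counts of 6, 0 and 1 and 1, 0 and 0 (adjusted p 0.294). Tnf, expressed at rest, had normalised counts of 447, 242 and 297 in untreated cells and 248, 174 and 233 with IL-10, with overlapping groups (log2 fold change -0.59, SE 0.259, adjusted p 0.334). With the replicate block its adjusted p was 0.0108, and without untreated replicate 2 it was 0.0383. Il1b gave 0.66 ± 0.432 (adjusted p 0.795).

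Interferon-stimulated antiviral genes were lower on average with IL-10, but the untreated libraries lay far apart and replicate 1 stood high among them. All 30 listed genes were tested, 7 fell, 0 rose, all 30 fitted differences were negative, and the median was -0.62. Untreated replicate 1 held the highest of the 3 untreated values in all 30. The median level of the list, as a log2 difference from the untreated mean, was 0.62, -0.57 and -0.43 in untreated replicates 1, 2 and 3 and -0.53, -0.77 and -0.48 with IL-10, so that 2 of the untreated libraries lay within or near the IL-10 range. Without untreated replicate 1 the median was -0.08, with 1 member higher and 1 lower. edgeR called 5 lower, limma on log2(TPM + 1) called 0, and the fit of the 6 libraries alone called 1. What raised these genes in untreated replicate 1 was not tested, and in IL-10 replicate 1 the list stood at -0.53.

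Single genes of the list behaved likewise. Ifit3, an interferon-induced antiviral protein (chr19:34658021-34663221, plus strand), had 584, 132 and 163 in untreated replicates 1, 2 and 3 and 96.6, 86.1 and 129 with IL-10 (log2 fold change -1.50, SE 0.434, adjusted p 0.0245). Cmpk2, a mitochondrial nucleotide kinase induced by interferon, had 326, 118 and 113 and 66.0, 73.0 and 92.2 (-1.28 ± 0.336, adjusted p 0.00836). Usp18, which removes ISG15 from proteins and restrains interferon signalling, had 127, 40.6 and 51.6 and 29.4, 25.4 and 39.9 (-1.25 ± 0.326, adjusted p 0.00789). In each gene the groups did not overlap, but the 2 lower untreated libraries lay much nearer to the IL-10 libraries than to untreated replicate 1. Oas3, Bst2, Rtp4 and Xaf1 fell by 0.79, 0.54, 0.67 and 0.63 on the log2 scale (adjusted p 0.00787, 0.00509, 0.0448 and 0.0216). The call of Ifit3 was lost without untreated replicate 1 (adjusted p 0.0644), IL-10 replicate 1 (adjusted p 0.168) or IL-10 replicate 2 (adjusted p 0.140). The call of Cmpk2 was lost without IL-10 replicate 1 (adjusted p 0.121) or IL-10 replicate 2 (adjusted p 0.0552). The call of Usp18 was lost without untreated replicate 1 (adjusted p 0.0652), IL-10 replicate 1 (adjusted p 0.104) or IL-10 replicate 2 (adjusted p 0.0749). The call of Oas3 was lost without untreated replicate 1 (adjusted p 0.0661), IL-10 replicate 1 (adjusted p 0.176) or IL-10 replicate 2 (adjusted p 0.0727). The call of Bst2 was lost without untreated replicate 1 (adjusted p 0.104) or IL-10 replicate 2 (adjusted p 0.0748). The call of Rtp4 was lost without untreated replicate 1 (adjusted p 0.558), IL-10 replicate 1 (adjusted p 0.0992), IL-10 replicate 2 (adjusted p 0.283) or IL-10 replicate 3 (adjusted p 0.0658). The call of Xaf1 was lost without untreated replicate 1 (adjusted p 0.432), IL-10 replicate 1 (adjusted p 0.0740) or IL-10 replicate 2 (adjusted p 0.184). The call of Tgtp2 was lost without untreated replicate 1 (adjusted p 0.343) or IL-10 replicate 3 (adjusted p 0.0689). Without untreated replicate 1 the log2 fold changes of Ifit3, Cmpk2 and Usp18 were -0.54, -0.60 and -0.63, and that of Tgtp2 was -0.90. Of 15 tested interferon-inducible GTPases (17 listed) 1 fell and 0 rose (median -0.40, 4 lower at an unadjusted p under 0.05), namely Tgtp2, with 123, 20.3 and 21.5 and 14.1, 13.8 and 4.15 (-2.36 ± 0.619, adjusted p 0.00873). Without untreated replicate 1 the median of the GTPases was 0.29, with 2 higher and 0 lower, and limma called 0. The Ifit3, Oas3 and Tgtp2 genes have neighbours of similar sequence, whose reads the counting may have divided.

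Promoter sequence is shown for 3 of these lowered genes because interferon-activated factors bind elements that contain GAAANNGAA. On either strand the motif was present in 16 of 103 lowered genes with a window (15.5%) and in 21 of 185 raised genes (11.4%), beside 8.87% of all tested genes and 8.56% of all windows. It can overlap TTCNNNGAA, and 110 tested genes held both. The capitals mark the match as read on the gene's strand, and in Ifit3 they are the motif's reverse complement.
Ifit3, chr19:34657868-34657936, plus strand: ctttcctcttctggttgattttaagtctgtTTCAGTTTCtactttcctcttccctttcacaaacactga
Oas3, chr5:121227705-121227773, minus strand: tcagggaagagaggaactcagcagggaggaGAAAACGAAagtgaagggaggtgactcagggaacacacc
Bst2, chr8:74061463-74061531, minus strand: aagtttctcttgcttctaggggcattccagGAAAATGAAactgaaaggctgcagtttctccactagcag
The matches ended 113 bases before the RefSeq start site in Ifit3, which held 3 matches in its window, 67 in Oas3 and 122 in Bst2. The stretch printed for Ifit3 also occurs, base for base, in the window of its neighbour Ifit3b (chr19:34682264-34682332). None of the printed windows overlaps an annotated exon, and no binding was measured.

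**Figure D3:**
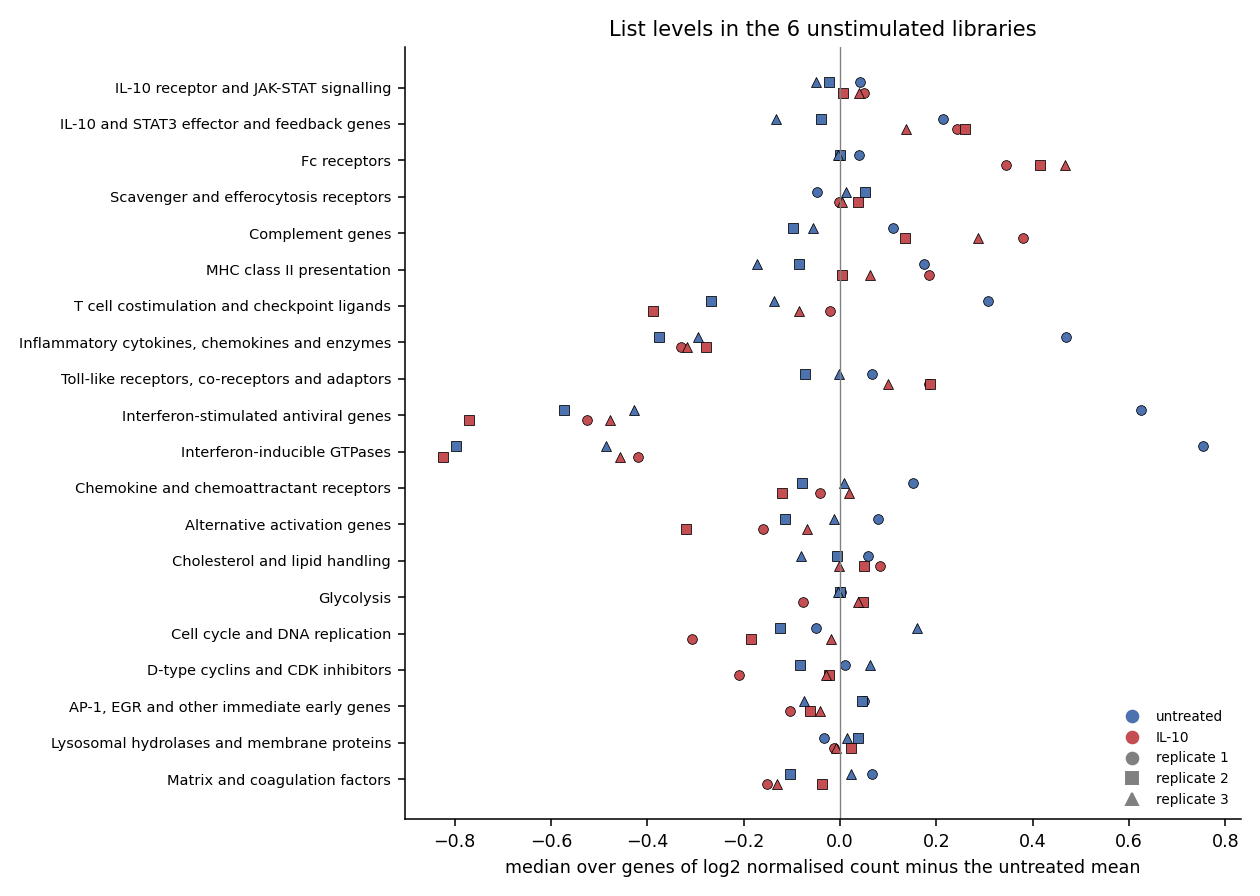
Median level of the tested members of the 20 gene lists in each of the 6 libraries, as the log2 difference of the normalised count (plus 1) from the untreated mean, with 1 point per library and a shape per replicate number. Fc receptors stand at 0.35 to 0.47 in the IL-10 libraries and near 0 in the untreated ones, while untreated replicate 1 stands alone at 0.62 in the interferon-stimulated list and at 0.75 in the interferon-inducible GTPases.

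The IL-10 response of resting cells was set beside that during LPS stimulation, measured in the 3 cultures given IL-10 and LPS against the 3 given LPS after the control pretreatment, so that the comparisons share no library, although all cultures came from the same 3 mice. During LPS stimulation at 50 ng/mL, 8.38% of 11448 tested genes were higher with IL-10 and 8.81% were lower. Of the 229 genes raised at rest, 224 were tested during LPS, 132 were higher there (58.9%) and 14 were lower (6.25%). Of the 129 genes lowered at rest, 62 were lower during LPS (48.1%) and 6 were higher (4.65%). The shared genes were 13.8% of those raised and 6.14% of those lowered by IL-10 during LPS. The interaction, which tests whether the 2 differences are equal, passed for 804 of 10808 genes (7.44%), 53.7% of them with the more positive difference during LPS, a share of 73.6% under total-count scaling. It passed for 92 of the 351 genes changed at rest that had an adjusted p.

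Genes most raised at rest differed in what IL-10 did during LPS. Nxpe5 rose in both settings. Its counts were 24.0 to 31.9 with LPS and 230.1, 293 and 276 with LPS and IL-10 (3.19 ± 0.314 there, interaction 0.37, adjusted p 0.788). Fcgr2b had 8011, 7389 and 8087 with LPS and 20035, 22192 and 22599.8 with both, and its rise was larger during LPS by 0.39 on the log2 scale (adjusted p 0.00222). For Il4ra, with 2507, 2518 and 2270.2 and 6834, 9288 and 6783, the rise was larger by 0.55 (adjusted p 0.0165). Socs3 was already induced by LPS to 28847, 28375 and 23772, and with IL-10 it stood at 41996, 43947 and 36287. The 3 libraries with both lay above the 3 with LPS, but the log2 difference was 0.59 ± 0.518 (adjusted p 0.534), and the interaction was -2.71 (adjusted p 0.00560). Arid5a, raised by IL-10 at rest, was lower with IL-10 during LPS, with 3513, 3692 and 3186 and 2276, 1592 and 1605 (-0.93 ± 0.138, adjusted p 8.14e-10; interaction adjusted p 9.22e-25). Stat3 had 9899.8, 9253 and 9141 and 10008, 9279 and 9027, a log2 difference of 0.00 ± 0.0924, and its interaction was -0.75 (adjusted p 1.37e-06).

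**Figure D4:**
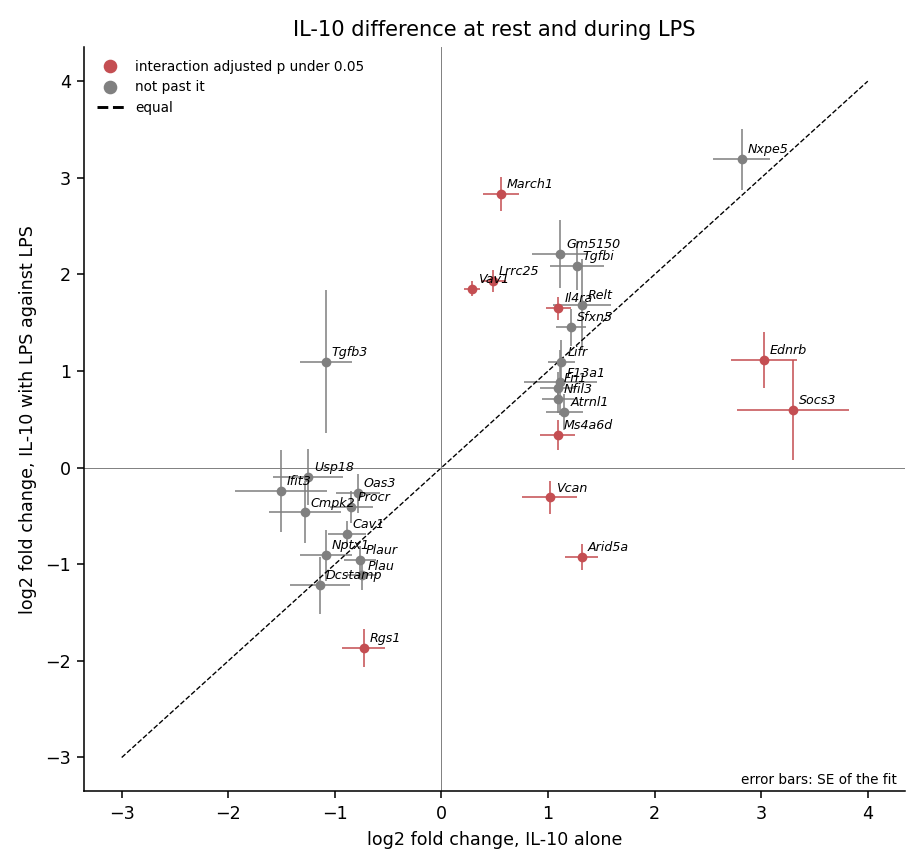
Log2 fold change with IL-10 alone (horizontal) and with IL-10 during LPS stimulation (vertical), with SE bars, for the 27 genes of the plots of large rises and falls at rest and 4 others with a called interaction (Nos2, near 0 counts at rest, is not drawn). Red points passed the interaction test, the dashed line marks equal differences, and Socs3, Ednrb, Arid5a and Vcan lie below it while March1, Vav1 and Lrrc25 lie above.

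Among the genes lowered at rest, Plau, Plaur and Dcstamp were lower during LPS too, by 1.12, 0.96 and 1.22 on the log2 scale (adjusted p 2.47e-12, 8.14e-10 and 4.66e-04), and none of their interactions passed (adjusted p 0.352, 0.785 and 0.972). Rgs1 fell further during LPS (-1.87 ± 0.200, interaction -1.14, adjusted p 0.00179). Tnf differed by -0.59 ± 0.259 at rest and fell by 1.38 during LPS (adjusted p 9.96e-07), with an interaction of -0.79 (adjusted p 0.215). Il10ra, at 0.05 ± 0.0703 at rest, fell by 0.58 during LPS (interaction adjusted p 2.60e-08). During LPS the interferon-stimulated genes Ifit3, Cmpk2, Usp18 and Oas3 gave -0.24, -0.46, -0.09 and -0.26 with IL-10, and neither these differences nor their interactions passed (interaction adjusted p 0.251, 0.389, 0.0872 and 0.363).

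The series also holds resting cells given (+)-JQ1 at 500 nM, an inhibitor of BET bromodomain proteins, which were compared with the same untreated libraries, so the values are given side by side only. Socs3 had counts of 45.8, 35.5 and 36.6 with JQ1 in replicates 1, 2 and 3, within the untreated range, Ednrb had 12.1, 8.87 and 11.0, Nxpe5 10.4, 6.90 and 7.33 and Fcgr2b 446, 465 and 473. The last 3 genes were therefore lower with JQ1 than in any untreated library and higher with IL-10. Their log2 fold changes with JQ1 were -2.03, -4.14 and -1.44 (adjusted p 1.41e-06, 2.43e-25 and 4.13e-69). Plau was lower with both agents, by 3.41 on the log2 scale with JQ1 and by 0.74 with IL-10.

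**Figure D5:**
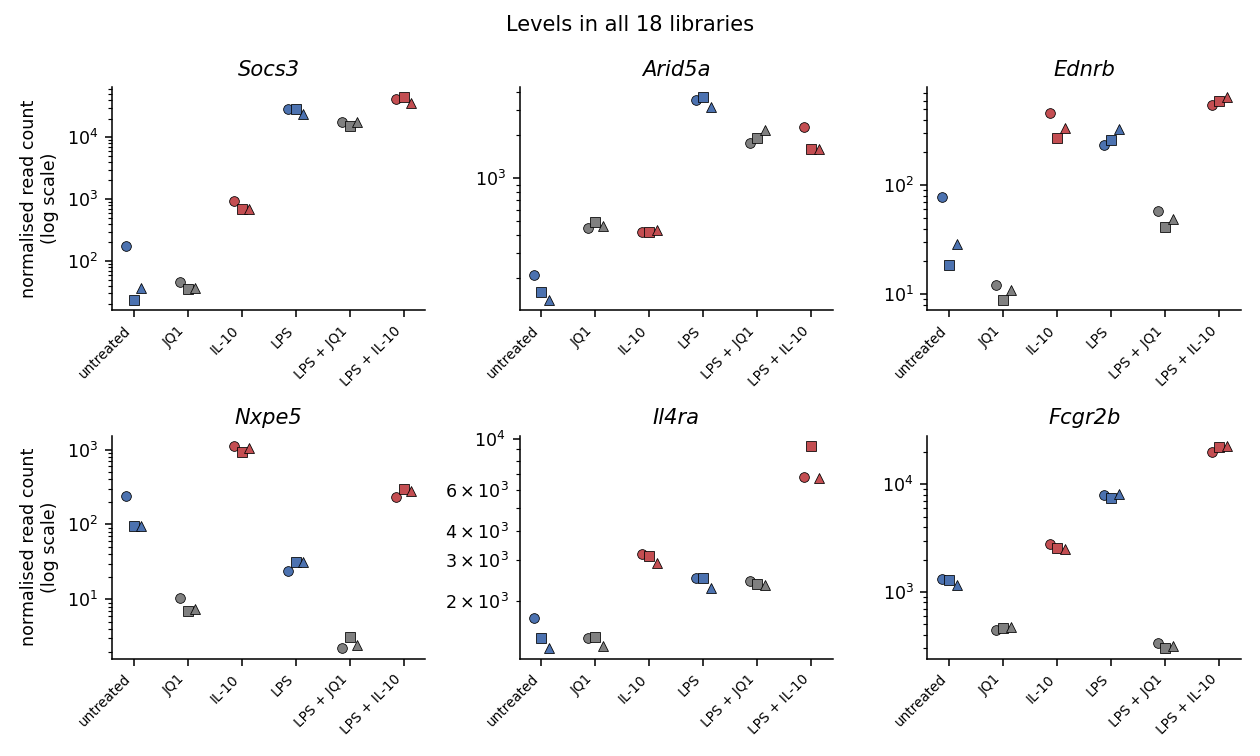
Normalised read counts (log scale, a separate axis per gene) of Socs3, Arid5a, Ednrb, Nxpe5, Il4ra and Fcgr2b in all 18 libraries, with 3 points per group and a shape per replicate number; IL-10 groups are red, untreated and LPS groups blue, and JQ1 groups grey. Each gene is higher with IL-10 than in untreated cells, and during LPS stimulation IL-10 goes with a higher level in Ednrb, Nxpe5, Il4ra and Fcgr2b and a lower level in Arid5a.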

How the data were processed

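RNA-seq was analysed from 6 libraries of resting BMDMs, with the 12 others of the series in the fit. Per the labels and methods, the authors removed ribosomal RNA, made stranded paired-end libraries, filtered reads with TagDust, and used STAR (mm9) and then RSEM 1.2.31, both at default settings. The deposited expected counts are estimates in which reads that match several genes are divided, without regard to strand, so near-identical, overlapping and antisense genes carry uncertain counts. TPM values, which scale for length, were used as the authors deposited them, and the deposited FPKM values and effective lengths were not used.

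Groups and replicate numbers came from the titles. The labels describe matched cultures of 3 mice, so the numbers were taken to pair the libraries, although no source says that a number names a mouse; deviations of same-numbered libraries from their group means correlated at 0.351, 0.201 and 0.0743 over 9515 genes, and those of other pairs at -0.245 to 0.0677. Replicates differed by more than sampling noise (chi-square per degree of freedom 3.97 to 10.1), and each was counted.

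Expected counts (5.56% to 6.63% of genes per library not whole) were rounded and fitted with DESeq2 1.42.0 in R 4.3.3 (18 libraries, a group term alone, default size factors and independent filtering), after the study's methods; a Benjamini-Hochberg adjusted p under 0.05 made a call. Normalised counts are counts divided by size factors. Files listed 24485 genes. A floor of 3 counts was set for each library, although lower counts occur. It was 0.106 to 0.442 CPM in these 6 libraries and reflects counting error alone, since no molecular identifiers were used. Alternatives were edgeR 4.0.16, limma 3.58.1 on log2(TPM + 1) and log2(TPM + 0.1) (at least 1 TPM in at least 3 libraries), TMM and total-count scaling, only the 6 or the 9 resting libraries, the replicate block, a filter of at least 10 counts in at least 3 libraries, no filter, and leaving out libraries. For IL-10 alone, the main fit, the replicate block, the fit of the 6 libraries, edgeR and limma on log2(TPM + 1) were also run on simulated counts. The interaction and the remaining alternatives were not.

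Named genes are the 15 largest rises and 12 largest falls among calls that averaged 50 or more normalised counts and moved one way in all 3 pairs, 9 genes named in any case, up to 4 calls in each of 20 lists and up to 8 genes called also by the interaction; other listed genes are given as examples of their list. A few members of the lists are counted but not reported here by name. The members and lists were chosen with earlier results of these data known. Gene positions are from GENCODE vM1 (mm9).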

Additional observations from a re-analysis of the deposited data

Results flagged for a closer look

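For 8 of the genes changed by IL-10 alone the difference between IL-10 effects with and without LPS passed its own test, the DESeq2 interaction, and was among the largest. Values are the log2 difference during LPS minus that at rest. It was 2.27 for March1, a ubiquitin ligase that lowers MHC class II at the cell surface (adjusted p 1.37e-17), 1.56 for Vav1, a guanine nucleotide exchange factor (adjusted p 4.79e-45), and 1.45 for Lrrc25 (adjusted p 1.19e-15). Counts of March1 were 663, 624 and 558 in untreated cells and 1009.5, 858 and 845 with IL-10, and 318, 329 and 499.7 with LPS and 2106, 2777 and 3279 with LPS and IL-10, so that the rise was 0.56 at rest and 2.83 during LPS. Lrrc25 rose by 0.48 at rest and 1.93 during LPS, and Vav1 by 0.29 and 1.85. These 3 and Arid5a passed in all 20 fits made.

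The opposite sign was found in Socs3 (-2.71, adjusted p 0.00560), Arid5a (-2.24, adjusted p 9.22e-25), Ednrb (-1.91, adjusted p 2.51e-04) and Vcan (-1.32, adjusted p 7.33e-04), which encodes the matrix proteoglycan versican. Vcan had 25.5, 23.7 and 18.8 in untreated cells and 48.3, 42.3 and 44.0 with IL-10, and 3488, 3069.9 and 4334 with LPS and 2744, 2359 and 3686 with both. Socs3 and Vcan passed in 18 of 20 fits and Ednrb in 19. For Nos2 the interaction was 4.62 (adjusted p 0.00648), but its resting counts came from untreated replicate 1 alone, it passed in 12 of 20 fits, and the value is no bound.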

How the results depend on the processing

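The count of 358 genes changed by IL-10 alone was 231 with edgeR (158 higher, 73 lower), 171 with limma on log2(TPM + 1) (145 higher, 26 lower) and 117 with limma on log2(TPM + 0.1) (108 higher, 9 lower). The share of higher genes, 64.0% in the reported fit, was thus 84.8% and 92.3% with limma. Over all tested genes the median log2 fold change was 0.046 and 0.051 in these limma fits and -0.006 in the reported fit. A shift of all genes upwards favours rises over falls. The count of changed genes lay between 168 and 374 when 1 library was left out and between 130 and 196 when 1 pair was left out. The fit without IL-10 replicate 1, the deepest library, gave the 168, and that without untreated replicate 3 gave 230. With the replicate block the count was 447 (342 shared), and the block ended or made no call of a named gene beyond those printed. Of the genes called in the text, edgeR did not call Anxa1, Atf3, Cdk6, Clec4a1, Ctsb, Ctsl, Ctss, Cxcl9, Fcgr3, Il12b, Irak4, March1, Ms4a4a, Nos2, Pim1, Rgs1, Rtp4, Tlr1, Vav1, Vcan and Xaf1. Limma on log2(TPM + 1) did not call these (Pim1 and Vav1 aside), Bst2, C4b, Cav1, Clec4a3, Cmpk2, Dcstamp, Dusp4, Dusp6, F13a1, Fcgr1, Ifit3, Ly86, Mrc1, Oas3, Plau, Pros1, Tgtp2 or Usp18. The scaling, low-count filter and choice of libraries fitted gave 323 to 474. The 804 genes with a called interaction became 529 with limma on log2(TPM + 0.1) and 291 to 748 when libraries were left out. Of 1371 refits of named genes that gave an adjusted p, 2 reversed, both of Il10rb, a gene without a call. Its values were -0.0126 without untreated replicate 1 and -0.0257 without replicate 1 (range over omissions -0.0257 to 0.0613). Among the 1371 refits 242 lost a call and 3, all of Tnf, gained one. Refits without an adjusted p, given elsewhere as lost calls, are not counted here. Nos2 had no counts left in either group without replicate 1 of untreated cells, so those alternatives gave no value. Eif3j1, singled out after its values were seen, had raw counts of 333, 0 and 427 in untreated cells and 0, 0 and 0 with IL-10; a near-identical gene exists, the cause was not tested, and no fold is given. The floor of 3 counts was a setting, and lower counts occur in these libraries.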

Other observations

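A few gene families not listed above had called members, and the families were chosen after their values were seen. Over all tested genes 1.8% were higher and 1.01% lower. Of 8 tested Ms4a genes, which encode membrane proteins of immune cells, 2 rose and 0 fell (17 listed), namely Ms4a6d and Ms4a4a. Ms4a4a had 475, 698 and 620.1 in untreated cells and 834, 858 and 772 with IL-10 (0.47 ± 0.143, DESeq2 adjusted p 0.0435). Ms4a4a lost its call without untreated replicate 1 (adjusted p 0.278) or untreated replicate 3 (adjusted p 0.0847). It was also lost without IL-10 replicate 1, 2 or 3 (adjusted p 0.215, 0.182 and 0.0655). Of 7 tested Clec4 C-type lectins 2 rose and 0 fell (11 listed; with the replicate block Clec4n rose as well, adjusted p 0.0122), namely Clec4a1, with 519.9, 370.4 and 450.5 and 966, 603 and 814 (0.83 ± 0.228, adjusted p 0.0151), and Clec4a3, with 280.0, 219.9 and 276 and 572, 428 and 470.2 (0.92 ± 0.231, adjusted p 0.00509). Clec4a1 lost its call without untreated replicate 1, 2 or 3 (adjusted p 0.0616, 0.131 and 0.207). It was also lost without IL-10 replicate 1 (adjusted p 0.241) or IL-10 replicate 3 (adjusted p 0.224). Clec4a3 lost its call without untreated replicate 2 (adjusted p 0.0594) or IL-10 replicate 1 (adjusted p 0.115). The lectin genes lie next to each other on chromosome 6 and share sequence, so their counts are uncertain.

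Ifitm2, a membrane protein that restricts viral entry, had 1537, 1304 and 1357 in untreated cells and 2597, 2318 and 2634 with IL-10 (0.84 ± 0.113, adjusted p 3.79e-11). The antiviral genes described above had a median of -0.62, or -0.08 without untreated replicate 1. Ifitm2 and Ifitm1 were the 2 risers, with 0 fallers, among 6 tested Ifitm genes (7 listed). Ifitm1 was low, with raw counts of 9, 1 and 10 in untreated cells and 62, 23 and 27 with IL-10. Ifitm3 gave -0.25 ± 0.154 (adjusted p 0.708), with overlapping groups. Of 20 tested Dusp genes, which encode dual-specificity phosphatases and are not all MAP kinase phosphatases (24 listed), 0 rose and 2 fell. Dusp6, which acts on ERK, had 360.3, 326 and 343 and 239, 243 and 236 (-0.53 ± 0.113, adjusted p 4.49e-04), and Dusp4 had 219, 198 and 202 and 121, 131 and 142 (-0.66 ± 0.162, adjusted p 0.00373). Ifitm2 and Dusp6 kept their calls when any 1 of the 6 libraries was left out. Dusp4 lost its call without IL-10 replicate 1 (adjusted p 0.0992). Ifitm1 lost its call without untreated replicate 3 (no adjusted p) or IL-10 replicate 2 (no adjusted p).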
